A study of Mus musculus with 59 samples.

Results

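The 9 genes described here are transcription factors and a growth factor that mark the epiblast after implantation, in the formative and primed states of pluripotency: *Otx2*, *Fgf5*, *Pou3f1*, *Zic2*, *Zic5*, *Sox3*, *Lef1*, *Sall2* and *Foxd3*. They were found by symbol, with earlier results of these data known when the list was drawn up, and are 9 of 22134 genes with a listed transcript. Each gene was read from its transcript with the highest mean count, and all 9 had counts in each of 14 single epiblasts dissected at E6.25. The epiblasts came from heterozygous intercrosses on a mixed background. In the *Ehmt2* cross there were 4 knockouts (G9a-/- in the labels) and 4 controls (G9a+/+ in the labels, while the methods allow controls to be heterozygous). In the *Ezh2* cross there were 3 knockouts (Ezh-/-) and 3 controls (Ezh+/+ in the labels, with the genotype of each control likewise not separated in the methods). The *Ehmt2* line derived from a conditional allele and was bred to mice that carry a *Pou5f1* EGFP reporter transgene, whereas the *Ezh2* line used an earlier described allele. Both parents were heterozygous, so the extraembryonic tissues around a knockout epiblast carried its genotype too. *Ehmt2* encodes G9a, which dimethylates lysine 9 of histone H3, and *Ezh2* encodes the methyltransferase of Polycomb repressive complex 2, which methylates lysine 27 of histone H3.

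At implantation the epiblast leaves the naive state, in which cells express genes such as *Esrrb* and *Klf4*, and becomes an epithelium that can respond to the signals of gastrulation. OTX2 directs the binding of OCT4 (*Pou5f1*) to enhancers that are used after implantation. FGF5 is a secreted growth factor long used as a marker of this stage. POU3F1, ZIC2, ZIC5, SOX3, LEF1, SALL2 and FOXD3 are DNA-binding proteins of the same tissue. LEF1 is the nuclear partner of β-catenin in Wnt signalling, and FOXD3 is required to maintain the epiblast.

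Libraries were made from 750 pg of RNA per epiblast after amplification, and the counts per transcript summed to between 30161171 and 45007990 in 12 epiblasts and to 62589918 and 68464895 in control 4 and knockout 4 of the *Ehmt2* cross. The methods of the study set each knockout against all controls, while its comparison columns name control 4 for knockout 4. The model of the *Ehmt2* cross had a term for these 2 sets, without which *Sall2* had an adjusted p of 0.218 by edgeR and no member passed. The targeted genes followed the labels. *Ehmt2* had 10.3 to 32.8 CPM (counts scaled to a common library size) in controls and 3.22 to 9.46 CPM in its knockouts (log2 fold change −1.63, SE 0.21, adjusted p = 0.00454 by edgeR), and *Ezh2* had 53.4 to 112.0 CPM in controls and 11.8 to 16.6 CPM in its knockouts (log2 fold change −2.52, SE 0.27, adjusted p = 0.0160 by edgeR). CPM here is relative to the scaled sum over all listed transcripts, of which a gene had 3.16 on average, so reads shared by isoforms enter it more than once. Values of single epiblasts are listed in the order of their replicate numbers. The labels do not tie epiblasts to litters, and p-values measure only the spread between these embryos. In a whole epiblast, fewer cells that express a gene and less RNA per cell cannot be told apart.

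The RNA of other tissues differed between epiblasts. The epiblast markers *Pou5f1*, *Nanog*, *Sox2*, *Tdgf1*, *Utf1* and *Slc7a3* were counted in all 14, with summed levels of 646 to 767 CPM in *Ehmt2* cross controls, 464 to 669 CPM in its knockouts, 614 to 775 CPM in *Ezh2* cross controls and 597 to 733 CPM in its knockouts. The 10 extraembryonic ectoderm markers summed to 344, 113, 142 and 39.8 CPM in *Ehmt2* knockouts 1 to 4 against 39.4 to 139 CPM in controls. Within that sum *Eomes*, which the primitive streak also uses, was 16.0 to 119 CPM in all 8, while the trophoblast regulator *Elf5* was 59.6, 5.79 and 12.0 CPM in knockouts 1 to 3, 0 in knockout 4 and at most 0.525 CPM in controls. *Cdx2* and *Tfap2c*, also trophoblast regulators, were likewise at 0 in knockout 4, and *Elf5* and *Cdx2* were at 0 in control 4. Control 4 and knockout 4 had the largest sums of counts but the fewest listed transcripts (57926 and 56476, against 59566 to 63240 in the others). Of the 13 visceral endoderm markers 6 were at 0 in each. Whether a 0 there means absent tissue was not tested. Of the 10 extraembryonic ectoderm markers 2 were higher in knockouts at an adjusted p under 0.05 by edgeR, *Elf5* (log2 fold change 6.03) and *Tfap2c*. Over all transcripts, 253 of 49872 were higher by this rule. Control 2 of the *Ehmt2* cross had the most primitive streak RNA (87.3 CPM over 9 markers, against 5.53 to 18.7 CPM in the other 7). The 13 visceral endoderm markers of the *Ezh2* cross summed to 1302 CPM in control 2 and 2933 CPM in knockout 1, against 36.3 to 54.9 CPM in the other 4. Neural plate markers (5 genes) summed to 1.93 to 8.73 CPM and maternal blood and decidua markers (6 genes) to 4.94 to 63.9 CPM over all 14. Results are therefore also given without control 2 and knockout 1 of each cross. Knockouts 2 and 3 of the *Ehmt2* cross, with *Elf5* above all controls, stay in those fits.

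In control epiblasts the members spanned a wide range of levels. Per kb of transcript, *Fgf5* and *Otx2* were the highest, with 80.4 ± 24.1 and 73.1 ± 4.37 CPM per kb (SD, n = 4) in controls of the *Ehmt2* cross and 71.0 ± 13.4 and 78.4 ± 1.60 CPM per kb (SD, n = 3) in controls of the *Ezh2* cross. The order of these 2 genes was not fixed: *Fgf5* was above *Otx2* in 2 of 4 controls of the first cross and below it in 2 of 3 of the second. *Sall2* followed at 23.96 ± 3.50 CPM per kb in the *Ehmt2* cross, below the range of both and above that of *Zic2* (16.8 ± 3.26 CPM per kb, n = 4). *Sall2* (17.7 ± 1.35) and *Zic2* (16.6 ± 3.10 CPM per kb, n = 3) overlapped in the *Ezh2* cross. *Lef1* and *Zic5* had 11.2 ± 1.93 and 11.1 ± 1.92 CPM per kb in the *Ehmt2* cross, with overlapping ranges. *Pou3f1* (8.60 ± 1.82), *Foxd3* (5.74 ± 1.61) and *Sox3* (3.16 ± 1.13 CPM per kb) were the lowest, and each overlapped the next. *Foxd3* and *Sox3* also overlapped in the *Ezh2* cross, with 3.97 ± 0.54 and 3.83 ± 1.44 CPM per kb. All 9 were far above the limit of detection: the lowest count of any member in any epiblast was 119, of *Sox3* in *Ezh2* knockout 2.

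**Figure D1:**
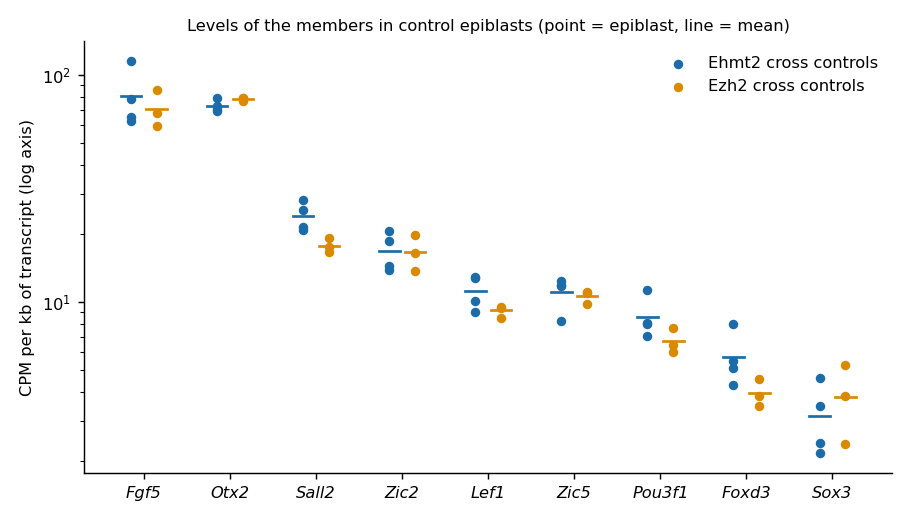
Level of each member in control epiblasts, in CPM per kb of transcript on a log axis, with 1 point per epiblast and a line at the mean (blue, 4 controls of the *Ehmt2* cross; orange, 3 controls of the *Ezh2* cross). *Fgf5* and *Otx2* stand above the other 7 members in both crosses, and *Foxd3* and *Sox3* are the lowest.

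The start regions of 4 members are shown because these 4 were lower in every *Ehmt2* knockout than in the controls of its set, as described after them. Each is the RefSeq promoter nearest to the start of the counted transcript, from 250 bases before to 50 bases after the annotated start (GRCm38.p6), on the strand of the gene and 5′ to 3′. Capitals mark CpG dinucleotides, the site of DNA methylation in mammals. *Otx2* is at chr14:48665060-48665359 (minus strand), *Fgf5* at chr5:98253934-98254233 (plus strand), *Lef1* at chr3:131110073-131110372 (plus strand) and *Sall2* at chr14:52328621-52328920 (minus strand).
Otx2: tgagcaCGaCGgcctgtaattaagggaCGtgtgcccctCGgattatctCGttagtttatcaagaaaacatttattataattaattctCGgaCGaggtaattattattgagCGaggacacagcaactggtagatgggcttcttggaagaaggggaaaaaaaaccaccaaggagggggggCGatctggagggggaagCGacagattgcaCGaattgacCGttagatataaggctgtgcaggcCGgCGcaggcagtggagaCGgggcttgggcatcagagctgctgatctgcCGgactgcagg
Fgf5: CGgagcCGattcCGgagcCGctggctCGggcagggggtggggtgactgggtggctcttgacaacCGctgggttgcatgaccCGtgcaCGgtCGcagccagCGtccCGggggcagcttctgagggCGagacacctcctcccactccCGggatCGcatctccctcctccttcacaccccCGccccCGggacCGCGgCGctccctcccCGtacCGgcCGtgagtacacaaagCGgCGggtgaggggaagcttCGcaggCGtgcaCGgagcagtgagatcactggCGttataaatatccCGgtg
Lef1: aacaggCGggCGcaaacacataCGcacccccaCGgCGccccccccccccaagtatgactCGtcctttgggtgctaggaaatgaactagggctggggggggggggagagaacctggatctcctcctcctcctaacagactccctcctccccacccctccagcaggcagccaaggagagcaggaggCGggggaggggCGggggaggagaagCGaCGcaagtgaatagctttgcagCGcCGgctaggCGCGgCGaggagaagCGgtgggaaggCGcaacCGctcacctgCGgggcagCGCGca
Sall2: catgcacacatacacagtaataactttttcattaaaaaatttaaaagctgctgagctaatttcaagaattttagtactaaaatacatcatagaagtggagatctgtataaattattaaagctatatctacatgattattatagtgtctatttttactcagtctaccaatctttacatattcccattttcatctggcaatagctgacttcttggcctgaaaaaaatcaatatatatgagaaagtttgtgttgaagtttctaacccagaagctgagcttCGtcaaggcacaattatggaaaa

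The 4 windows differ in CpG content. *Fgf5* had 29 CpG, *Lef1* 21 and *Otx2* 16, against a median of 7 over 32851 promoters of the same length. The count depended on the start: other listed starts had 6, 8 and 11 CpG for *Otx2* and 18, 8 and 5 for *Lef1*. *Sall2* had 1, and its G and C content was 30.3%. A second *Sall2* start, inside the gene at chr14:52316274-52316573, had 10 CpG in its window. Promoters were also found for *Foxd3* (25 CpG) and *Zic5* (15 CpG), so 6 of the 9 members matched the table. Each of 4 motifs was searched on both strands of the 6 windows: TAATCC, bound by OTX proteins (in 7.06% of all promoters), the octamer ATGCAAAT of POU proteins (1.74%), CTTTGA, part of the TCF/LEF site (16%), and CCTGCTG, part of the ZIC site (10.5%). There were 2 matches, both on the reverse strand: TAATCC at position −211 from the *Otx2* start and CCTGCTG at −93 from the *Lef1* start.

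In *Ehmt2* knockouts 8 of 9 members had a lower fitted level than in controls, against 51% of all 49872 transcripts tested. The median log2 fold change of the members was −0.54, at or below which lay 12.3% of all transcripts, and the median over all transcripts was −0.01. After adjustment over all transcripts, *Sall2* was the 1 member with an adjusted p under 0.05, against 0.162% of all transcripts that were lower by this rule. Without adjustment 6 of 9 members had a p under 0.05 and were lower, against 5.62% of transcripts. The 49872 transcripts include several isoforms per gene (13749 genes), while each member is the 1 transcript with the highest mean count of its gene. In *Otx2*, *Lef1* and *Sall2* every knockout was below every control, which held for 2.53% of transcripts. *Fgf5* joined them when knockouts were compared within their sets (knockouts 1 to 3 with controls 1 to 3, knockout 4 with control 4), a pattern met by 5.1% of transcripts.

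**Figure D2:**
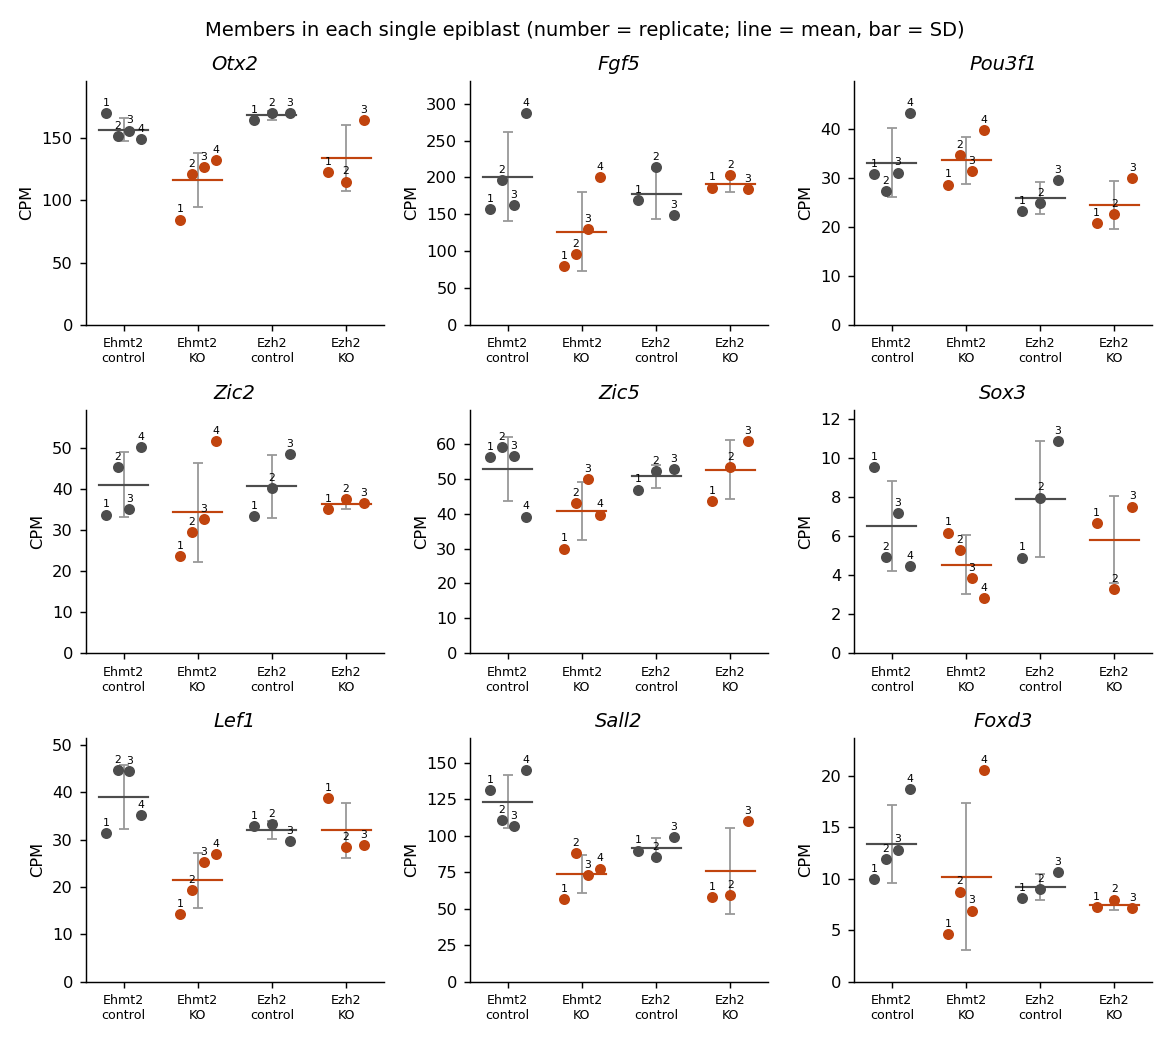
CPM of each member in each single epiblast (y axis from 0, a separate scale per gene), with the replicate number above each point, a line at the group mean and a bar of 1 SD (grey, control; red, knockout). *Otx2*, *Lef1* and *Sall2* do not overlap between genotypes in the *Ehmt2* cross, and in the *Ezh2* cross *Foxd3* does not. Every knockout was below every control in 2.53% of all transcripts in the *Ehmt2* cross and in 6.61% in the *Ezh2* cross.

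*Sall2* encodes a zinc finger protein of the Spalt family (ENSMUST00000058326, chr14:52311177-52328762, minus strand, GRCm38). Its level was 131, 111, 107 and 145 CPM in the 4 controls of the *Ehmt2* cross against 56.5, 87.9, 73.1 and 77.4 CPM in the 4 knockouts. The highest knockout was below the lowest control, and knockout 4 differed from control 4 by −0.90 on the log2 scale. The log2 fold change was −0.74 (SE 0.14, 95% interval −1.04 to −0.43, adjusted p = 0.0393 by edgeR), a fall from 123 ± 18.03 to 73.7 ± 13.0 CPM (SD, n = 4 per genotype), and the exact permutation p (two-sided) was 0.0286, the lowest reachable with 4 against 4. The second listed *Sall2* isoform, with a log2 fold change of −0.71, also had an adjusted p under 0.05. Isoforms share reads, so that result is not separate evidence. With all transcripts of the gene summed, the adjusted p of *Sall2* was 0.0650 by edgeR. The call was narrow. The adjusted p of *Sall2* rose above 0.05 without any one of controls 1 to 4 or of knockouts 1, 3 and 4 (0.0600 to 0.132 by edgeR), while its log2 fold change stayed between −0.86 and −0.64 over these refits and that without knockout 2.

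*Lef1* (ENSMUST00000029611, chr3:131110471-131224356, plus strand) had the largest difference of the 9. It had 31.4, 44.8, 44.5 and 35.2 CPM in the 4 controls against 14.2, 19.3, 25.3 and 26.9 CPM in the 4 knockouts. No knockout reached the lowest control, and knockout 1 was the lowest. The log2 fold change was −0.87 (SE 0.20, 95% interval −1.32 to −0.43), with an unadjusted p of 0.00106 and an adjusted p of 0.0915 by edgeR (two-sided exact permutation p = 0.0286, the smallest possible). All 6 listed isoforms, which share reads and are not separate evidence, were fitted lower, with log2 fold changes from −1.18 to −0.87. Of these, 1 had an adjusted p under 0.05 (0.0468 by edgeR). The exons of this transcript overlap *Gm43352* on the opposite strand over 1208 bases, and the amplification kept no strand, so reads of both cannot be separated there.

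*Fgf5* (ENSMUST00000031280, chr5:98254184-98277030, plus strand) had 157, 197, 163 and 288 CPM in the 4 controls against 80.2, 96.4, 129 and 200 CPM in the 4 knockouts. Both epiblasts numbered 4 were higher than the rest of their genotype, so the groups overlapped, but knockouts 1 to 3 lay below controls 1 to 3 and knockout 4 differed from control 4 by −0.52 on the log2 scale. The log2 fold change was −0.70 (SE 0.14, 95% interval −1.01 to −0.38, unadjusted p = 0.000389, adjusted p = 0.0548 by edgeR), while the exact permutation test, which takes no account of the sets, gave p = 0.143.

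*Otx2* (ENSMUST00000118578, chr14:48657679-48665106, minus strand), the homeobox gene at the head of this list, had 170, 151, 156 and 149 CPM in the 4 controls against 84.4, 121, 127 and 132 CPM in the 4 knockouts. The knockouts did not overlap the controls, although knockout 4, the highest of them, differed from control 4 by −0.18 on the log2 scale. The log2 fold change was −0.44 (SE 0.13, 95% interval −0.73 to −0.14, unadjusted p = 0.00682, adjusted p = 0.208 by edgeR; exact permutation p = 0.0286). All 8 listed isoforms, which likewise share reads, were fitted lower, with log2 fold changes from −0.58 to −0.44. The smallest adjusted p among them was 0.198 by edgeR.

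The neighbouring genes *Zic2* and *Zic5*, zinc finger genes that start 9758 bases apart on chromosome 14 and are read in opposite directions, were lower in knockouts 1 to 3 only. *Zic5* had 56.1, 59.1, 56.5 and 39.1 CPM in the 4 controls against 30.0, 43.0, 49.96 and 39.7 CPM in the 4 knockouts. *Zic2* had 33.7, 45.2, 35.0 and 50.1 CPM in controls against 23.7, 29.4, 32.6 and 51.5 CPM in knockouts. In both genes knockouts 1 to 3 lay below controls 1 to 3 and knockout 4 was at the level of control 4. The second listed *Zic2* isoform was not fitted lower (log2 fold change 0.17), while the counted transcript held 94.2% of the summed *Zic2* counts. Their log2 fold changes were −0.36 (SE 0.16, adjusted p = 0.419) and −0.30 (SE 0.15, adjusted p = 0.493 by edgeR). Without knockout 1 they were −0.21 and −0.20, and *Zic2* was −0.18 without control 2.

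The forkhead gene *Foxd3* showed the same arrangement, with 9.99, 11.9, 12.8 and 18.7 CPM in the 4 controls against 4.59, 8.75, 6.89 and 20.6 CPM in the 4 knockouts (log2 fold change −0.54, SE 0.24, adjusted p = 0.409 by edgeR). Knockout 4 held the highest value of all 8, and without knockout 1 the log2 fold change was −0.35. The annotated gene *Gm23366* overlaps *Foxd3* on the same strand over 89 bases. *Sox3*, an X-linked gene of the SOXB1 group, had 9.52, 4.93, 7.19 and 4.45 CPM in controls against 6.18, 5.30, 3.86 and 2.81 CPM in knockouts (log2 fold change −0.54, SE 0.27, adjusted p = 0.463 by edgeR), with overlap. Beside this X-linked gene, 4 Y-linked genes summed to 54.0 to 73.9 CPM in controls 2 and 4 and in knockout 4 and to at most 0.416 CPM in the other 5 epiblasts of the cross. The part of embryo sex in the *Sox3* values was not tested.

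*Pou3f1*, which encodes the POU protein OCT6, was the exception. It had 30.7, 27.4, 31.1 and 43.3 CPM in controls against 28.6, 34.6, 31.4 and 39.8 CPM in knockouts, and the ranges overlapped. Its exons overlap *Gm2164* on the opposite strand over 330 bases, where reads of both cannot be separated. The log2 fold change was 0.03 (SE 0.12, adjusted p = 0.948 by edgeR), and its 95% interval, −0.24 to 0.30, leaves out a change as large as the members' median. Its sign turned without control 2 or knockout 2 (−0.02 and −0.03).

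**Figure D3:**
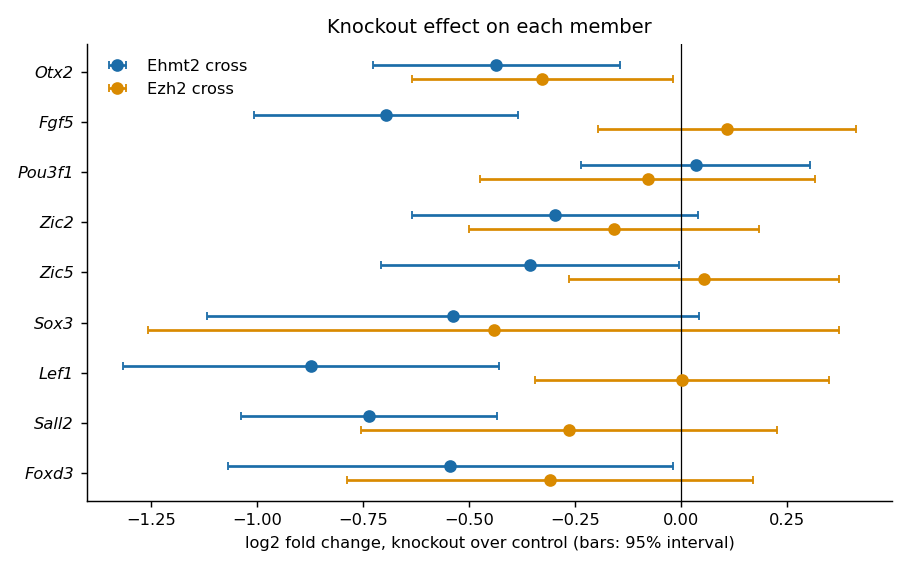
Log2 fold change of each member, knockout over control, with its 95% interval from edgeR (blue, *Ehmt2* cross; orange, *Ezh2* cross). In the *Ehmt2* cross 6 intervals lie wholly below 0, those of *Otx2*, *Fgf5*, *Zic5*, *Lef1*, *Sall2* and *Foxd3*, and in the *Ezh2* cross 1 does, that of *Otx2*. Of all transcripts 5.62% and 2.97% were lower with an unadjusted p under 0.05 by edgeR in these crosses.

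The 4 *Ehmt2* knockouts differed in how many members were low and by how much. Against the mean of its own controls, knockout 1 had all 9 members lower, with a median log2 difference of −0.92. Knockouts 2 and 3 had 8 of 9 lower, with medians of −0.39 and −0.40. Knockout 4 had 6 of 9 lower, with a median of −0.18, and there *Sall2* (−0.90), *Sox3* (−0.58), *Fgf5* (−0.52) and *Lef1* (−0.38) were the lowest on the log2 scale. With 1 control in its set, the values of knockout 4 have no replicate check. The same counts and medians were not computed over all transcripts for each knockout. In the fit of the whole cross 51% of all transcripts were lower. *Elf5* was 59.6, 5.79, 12.0 and 0 CPM in knockouts 1 to 4. The summed epiblast markers were 464 CPM in knockout 1 against 534 to 669 CPM in the other 3. *Zic5* (0.02), *Zic2* (0.04) and *Foxd3* (0.13) were not lower in knockout 4 than in control 4. The part of extraembryonic tissue in the members' differences was not tested. Without knockout 1 no member had an adjusted p under 0.05 by edgeR and the median was −0.35. The share of all transcripts that passed, in either direction, fell as well, from 0.67% to 0.315%. Without knockout 1 and control 2 again no member passed, the median was −0.33, and 0.184% of all transcripts passed. In that fit the log2 fold changes were −0.68 for *Sall2* (adjusted p = 0.153 by edgeR), −0.64 for *Lef1*, −0.51 for *Fgf5*, −0.33 for *Otx2*, −0.31 for *Foxd3*, −0.18 for *Zic5*, −0.09 for *Zic2*, −0.80 for *Sox3* and 0.02 for *Pou3f1*.

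**Figure D4:**
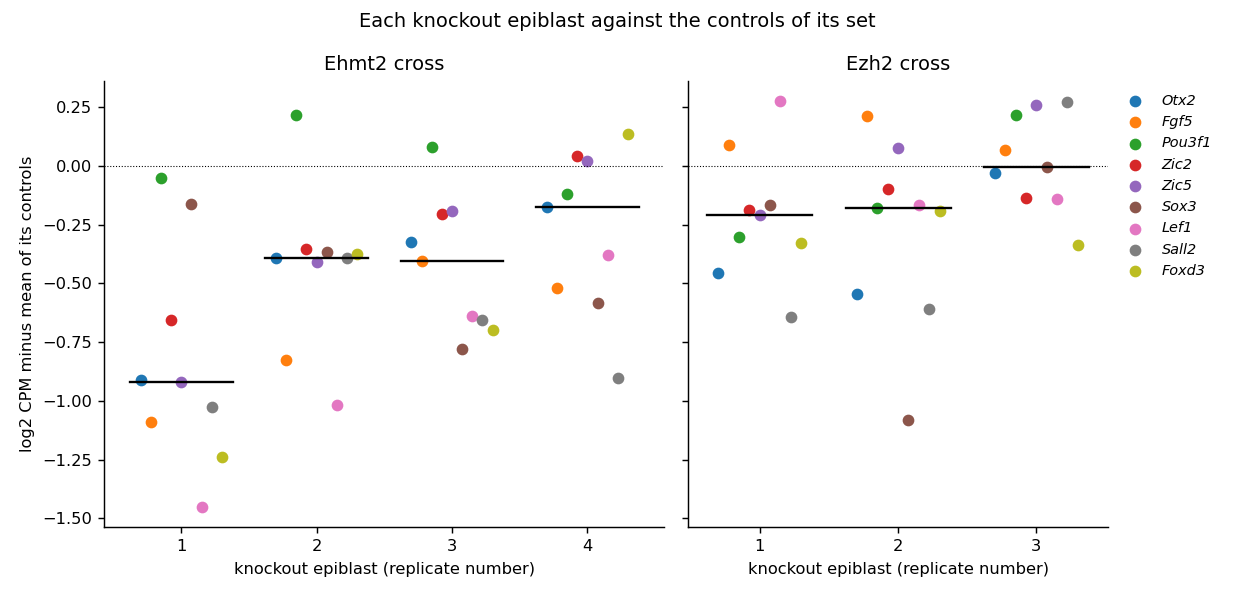
Log2 CPM (plus 0.5) of each member in each knockout epiblast minus the mean of the controls of its set, with 1 colour per gene and a black line at the median of the 9 members. The median is −0.92 in *Ehmt2* knockout 1 and −0.18 in knockout 4, and between −0.21 and −0.01 in the 3 *Ezh2* knockouts. The same medians over all transcripts were not computed.

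Within replicates 1 to 3 of the *Ehmt2* cross, 2 members had an adjusted p under 0.05 by edgeR, *Fgf5* (log2 fold change −0.76, adjusted p = 0.0493) and *Lef1* (−1.04, adjusted p = 0.0448), and *Sall2* did not (−0.68, adjusted p = 0.0635). Of all transcripts in that fit 1.13% passed, in either direction. In *Otx2*, *Fgf5*, *Zic2*, *Zic5*, *Lef1*, *Sall2* and *Foxd3* the 3 knockouts lay below the 3 controls (exact permutation p = 0.1 each, the smallest that 3 against 3 allow), as they did in 8.39% of transcripts.

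In the *Ezh2* cross no member had an adjusted p under 0.05 by edgeR, and DESeq2 gave none either. Without adjustment 1 of 9, *Otx2*, had a p under 0.05 and was lower, against 2.97% of 50855 transcripts, while 0.0118% of transcripts were lower with an adjusted p under 0.05. Of the members 6 were fitted lower, against 48.5% of all transcripts, and their median log2 fold change was −0.16 (0.01 over all transcripts). In 1 member, *Foxd3*, every knockout was below every control, against 6.61% of transcripts.

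*Otx2* had 164, 170 and 170 CPM in the 3 controls of the *Ezh2* cross against 122, 115 and 164 CPM in the 3 knockouts. Knockouts 1 and 2 were below all controls and knockout 3 was level with control 1. The log2 fold change was −0.33 (SE 0.14, 95% interval −0.64 to −0.02, adjusted p = 0.689 by edgeR). *Sall2* divided in the same way, with 89.7, 85.1 and 98.8 CPM in controls against 58.1, 59.5 and 110 CPM in knockouts: knockouts 1 and 2 were below the lowest control and knockout 3 was above the highest (log2 fold change −0.26, SE 0.22, adjusted p = 0.868 by edgeR). *Foxd3* had 8.12, 8.95 and 10.6 CPM in controls against 7.21, 7.95 and 7.16 CPM in knockouts (log2 fold change −0.31, SE 0.22, adjusted p = 0.830 by edgeR; exact permutation p = 0.1).

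*Fgf5* had 169, 214 and 149 CPM in controls against 186, 203 and 184 CPM in *Ezh2* knockouts, which lay inside the range of the controls. Its 95% interval on the log2 scale was −0.20 to 0.41, so a fall as large as the −0.70 of the *Ehmt2* cross was outside it. *Lef1* had 32.9, 33.2 and 29.7 CPM in controls against 38.7, 28.4 and 28.9 CPM in knockouts, and its interval was −0.35 to 0.35. For *Pou3f1*, *Zic2* and *Zic5* the log2 fold changes were −0.08, −0.16 and 0.05, and for all 3 the groups overlapped. *Sox3* had 4.90, 7.97 and 10.9 CPM in controls against 6.66, 3.30 and 7.51 CPM in knockouts, with the widest interval of the 9 (−1.26 to 0.37). The Y-linked genes summed to 60.9 to 78.5 CPM in control 2 and the 3 knockouts and to at most 0.586 CPM in controls 1 and 3, so sex and genotype were partly confounded in this cross. Without control 2 and knockout 1, the epiblasts with visceral endoderm RNA, again no member had an adjusted p under 0.05 and the median was −0.14.

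The knockout effects of the crosses were compared directly in a model of all 14 epiblasts. No member had a different effect at an adjusted p under 0.05 by edgeR, against 0.0579% of 55248 transcripts. Without adjustment 2 members, *Fgf5* and *Lef1*, had a p under 0.05 with the lower effect in the *Ehmt2* cross, against 4.53% of transcripts. The difference of the log2 fold changes (*Ehmt2* minus *Ezh2*) was −0.80 for *Fgf5* (SE 0.22, 95% interval −1.26 to −0.35, unadjusted p = 0.00178, adjusted p = 0.289) and −0.87 for *Lef1* (SE 0.28, 95% interval −1.47 to −0.27, unadjusted p = 0.00702, adjusted p = 0.412 by edgeR). For *Sall2* it was −0.47 (95% interval −1.06 to 0.11) and for *Otx2* −0.11 (−0.54 to 0.33). The members lower in the *Ehmt2* cross were therefore not shown to differ in response between the 2 crosses.

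Across the 14 epiblasts, after the mean of each set was subtracted, the members varied together in most pairs. Pearson's r of log2 CPM was above 0 in 34 of 36 pairs, with a median of 0.59 and a range of −0.23 to 0.89. The genotypes and the shared library of each epiblast enter these values, which are given as a description. The same share was not computed over pairs of other genes, so joint variation is not shown to be particular to the members. Of 9793 genes with a mean count of at least 100, *Lin28b*, which encodes an RNA-binding protein that blocks let-7 maturation, was the second closest to *Otx2* (r = 0.94), after *Ubqln4* (0.96). *Bmpr1b*, a BMP receptor gene, and *Cers1* were closest to *Fgf5* (both 0.93), *Bicd1* and the receptor gene *Kit* to *Lef1* (0.94 and 0.93), and *Clip3* and *Psip1* to *Sall2* (0.92 and 0.91). *Grik3*, a glutamate receptor gene, was closest to *Zic5* (0.95). *Dock1* was among the 2 closest to both *Zic2* (0.87, with *Ttc3* at 0.88) and *Foxd3* (0.94, with *Zfp40* at 0.92). *Pou3f1* was closest to *Gng3* and *Gkap1* (0.92 and 0.90) and *Sox3* to *Brcc3* and *Xrcc5* (both 0.87). All values are over 14 epiblasts, and each is among the 2 highest of 9793 genes. How high such values run for other genes was not computed, so these genes are not shown to be particular to the members.

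Other genes of the same stage were read from a list of 18, all of which were tested in both crosses. In the *Ehmt2* cross 1 was lower and 0 higher at an adjusted p under 0.05, against 0.162% of all transcripts that were lower by this rule. Of the 18, 14 were fitted lower, and the median log2 fold change was −0.20. The one that passed was *Sox11*, a SOXC transcription factor gene, at 18.3 ± 3.09 CPM in knockouts against 30.5 ± 3.67 CPM (SD, n = 4 per genotype; log2 fold change −0.73, SE 0.14, adjusted p = 0.0388 by edgeR). None of the 18 passed in the *Ezh2* cross by edgeR, 9 were fitted lower, and the 2 with the largest differences were *Etv4* (0.48, adjusted p = 0.795), a target of FGF signalling, and *Sox11* (−0.39, adjusted p = 0.656).

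Relatives from the members' own gene families gave no call. Of 20, 15 were tested in each cross and 0 had an adjusted p under 0.05 by edgeR, with a median log2 fold change of −0.06 in the *Ehmt2* cross and 0.16 in the *Ezh2* cross. The largest differences in the *Ehmt2* cross were those of *Otx1* (−1.07, SE 0.78) and *Fgf8* (−0.60, SE 0.40). *Sall1* and *Sall4*, the Spalt relatives of *Sall2*, both had −0.06. *Zic1*, a neural relative of *Zic2* and *Zic5*, was at 2.77 ± 1.23 CPM in knockouts against 0.156 ± 0.0604 CPM (SD, n = 3 per genotype; log2 fold change 4.12, SE 0.61, adjusted p = 0.112 by edgeR) in the *Ezh2* cross, and *Otx1* had a log2 fold change of 2.34 (SE 0.68, adjusted p = 0.532 by edgeR).

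Of 11 genes of the preceding, naive state, 8 were tested in each cross, with median log2 fold changes of 0.73 in the *Ehmt2* cross and 0.96 in the *Ezh2* cross. Most of these had low levels. *Nanog* had a mean of 29.1 CPM in *Ehmt2* cross controls, against 0.348 to 3.46 CPM for the other tested genes. Its log2 fold change was −0.11 in that cross (adjusted p = 0.878) and 0.08 in the *Ezh2* cross (adjusted p = 0.959 by edgeR). At an adjusted p under 0.05, 1 was higher and 0 lower in the *Ehmt2* cross, where 253 of all 49872 transcripts were higher by this rule. It was *Esrrb*, which the extraembryonic ectoderm also expresses, with 0.0180 to 0.551 CPM in controls and 1.08 to 39.6 CPM in knockouts (log2 fold change 5.33, SE 0.63, adjusted p = 0.00310 by edgeR). None passed in the *Ezh2* cross by edgeR, and the largest differences were those of *Esrrb* (3.28, adjusted p = 0.437) and *Klf4* (1.12, adjusted p = 0.738). Of 6 core pluripotency genes, 1 was higher and 0 lower in the *Ehmt2* cross: *Dppa4*, at 8.94 ± 3.42 CPM in knockouts against 2.06 ± 0.70 CPM (SD, n = 4 per genotype; log2 fold change 2.11, SE 0.31, adjusted p = 0.0102 by edgeR). *Pou5f1* had a log2 fold change of −0.47 there (SE 0.13, adjusted p = 0.145), close to that of *Otx2*. None of the 6 passed in the *Ezh2* cross by edgeR, and the largest differences were those of *Sox2* (0.28) and *L1td1* (0.18).

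**Figure D5:**
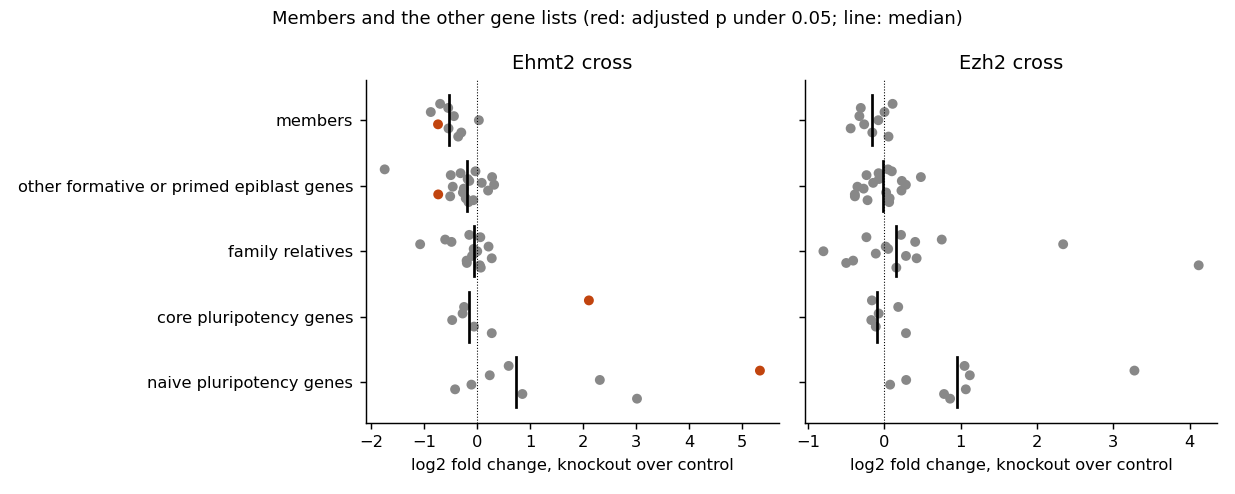
Log2 fold change of each tested gene in the 9 members and 4 other lists, in the *Ehmt2* cross (left) and the *Ezh2* cross (right), with a black line at the median of each list and red points at an adjusted p under 0.05 by edgeR. In the *Ehmt2* cross the members have the lowest median, −0.54, and the naive genes the highest, 0.73. Most of these naive genes had low levels, and *Nanog*, the highest expressed of them, had −0.11.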

How the data were processed

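The authors trimmed the reads to a common length, aligned them with TopHat2 to GRCm38/mm10 and counted them per Ensembl transcript with HTSeq-count. They deposited raw counts, 1 table per epiblast, and the labels' processing notes name the same tools. A transcript not listed in an epiblast was given 0. A row of unaligned reads in the tables of control 4 and knockout 4 of the *Ehmt2* cross (12.6% and 13.3% of their sums) was left out. Of 72515 transcripts, 70021 (96.6%) matched GENCODE vM21, which gave names and positions. The ChIP-seq and methylation samples were not analysed here.

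Counts were filtered with filterByExpr, scaled by TMM and tested with edgeR 4.0.16 (R 4.3.3) by glmQLFit and glmQLFTest, with the comparison sets as a term in the *Ehmt2* cross and Benjamini-Hochberg adjustment over all transcripts, at 0.05. The SE is the log2 fold change over the square root of F. Permutation tests were exact and two-sided on mean CPM, 9 per cross and again without replicate 4, and are unadjusted. Log values are log2(CPM + 0.5). DESeq2 1.42.0 was an alternative. Scripts were tested on simulated data. Named genes are the 9 members, the targeted genes, the genes past 0.05 in each list (otherwise the 2 with the largest difference) and the 2 genes most like each member, of which 1 is not reported here. The members and lists were chosen with earlier results of these data known. Counts of 2 epiblasts of a group differed by 13.5 times the sampling noise or more (chi-square per degree of freedom), so none was counted as a duplicate. The rest used Python 3.11.15, scipy 1.17.1 and pandas 2.3.3.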

Additional observations from a re-analysis of the deposited data

Results flagged for a closer look

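One of 18 groups of 4 values held an epiblast far from the others: *Zic5* in control 4 of the *Ehmt2* cross was 39.1 CPM, whereas controls 1 to 3 had 56.1, 59.1 and 56.5 CPM, and its gap to the nearest was 0.852 of the range. About 1 group in 20 would show such a gap by chance. Knockout 4 had 39.7 CPM, so in this gene both epiblasts of that set were low.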

How the results depend on the processing

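In the *Ehmt2* cross the number of members with an adjusted p under 0.05 was 1 with TMM and with RLE scaling, 3 with DESeq2 and without a filter on low counts (*Fgf5*, *Lef1* and *Sall2* both times), 2 with 1 transcript per gene (*Fgf5* and *Sall2*) or in replicates 1 to 3 only (*Fgf5* and *Lef1*), and 0 with the sum of all transcripts of a gene, without the term for the comparison sets, with a log2 fold change beyond 1.4 required, when that size was required of every knockout on its own with p-values combined by Fisher's method, or without control 2 and knockout 1 (an alternative chosen after seeing the data). It was 0 to 2 when each epiblast was left out. The share of all features called moved as well, from 0.67% to 3.12% with DESeq2, 0.909% without a filter, 1.17% with 1 transcript per gene and 0.104% without the term for the sets. The replicate block gave 0 (*Sall2* adjusted p = 0.111 by edgeR). Which epiblasts shared a litter is not known, and not every same-numbered pair deviated together: the correlations were 0.05 to 0.37 in this cross and −0.11 to 0.16 in the *Ezh2* cross. The members' median stayed between −0.57 and −0.33 in this cross under every alternative. In the *Ezh2* cross and for the difference between crosses the count was 0 under every alternative run, and the *Ezh2* median was −0.28 to −0.050 when each epiblast was left out.

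Signs turned only in small differences. In the *Ezh2* cross *Lef1* (0.00) was −0.0059 without a filter, −0.015 with 1 transcript per gene, −0.011 with the replicate block, −0.13 without control 2 and knockout 1, and −0.16 to 0.079 when each epiblast was left out, where *Fgf5* was −0.0074 to 0.27, *Pou3f1* −0.26 to 0.025 and *Zic5* −0.065 to 0.17. *Pou3f1* in the *Ehmt2* cross was −0.029 to 0.084. The difference between crosses was −0.21 to 0.068 for *Otx2*, −0.40 to 0.16 for *Sox3* and −0.00011 to 0.29 for *Pou3f1* when each epiblast was left out, and 0.050 for *Zic2* without both pairs of epiblasts. The cause was not tested. With 3 or 4 embryos per genotype, differences of the size seen in *Otx2* or *Foxd3* did not pass adjustment over all transcripts.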
